A study of Mus musculus with 10 samples.

Results

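The genes described here are 7 genes of the ectodysplasin pathway and its surroundings, Eda, Edar, Edaradd, Eda2r, Traf6, Nfkbia and Foxi3, in mouse molar tooth germs exposed to insulin-like growth factor 1 (IGF1). They were chosen by name and matched to Ensembl gene identifiers through their GENCODE symbols, and all 7 are among the 18381 genes of the count table. The samples are first lower molars of wild type C57BL/6JOlaHsd mouse embryos at E14 (embryonic day 14), each grown for 6 h in a hanging drop of medium. The IGF1 group received mouse recombinant IGF1 at 750 ng per ml, dissolved in phosphate buffered saline with 0.1% bovine serum albumin, and the control group received an equal volume of that vehicle. The teeth come in pairs from 5 embryos, called 1, 2, 3, 4 and 6 in the labels: a molar of each embryo was treated and the other served as its control, with left and right sides balanced, which gives 5 IGF1 and 5 control samples and no pooled animals. RNA was taken from the whole tooth germ, so epithelium and mesenchyme were measured together, and fewer cells of a type and less RNA per cell cannot be told apart.

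Ectodysplasin, encoded by Eda, is a ligand of the tumour necrosis factor family that signals in placodes and in the enamel knot, the epithelial signalling centre of the tooth. It binds the receptor EDAR, which recruits the adaptor EDARADD and, through TRAF6, activates the IkB kinase complex and the transcription factor NF-kB. Mutations that disable the ligand, receptor or adaptor cause hypohidrotic ectodermal dysplasia, with missing and misshapen teeth, and their mouse counterparts are known as Tabby, downless and crinkled. Foxi3 is a forkhead transcription factor of tooth and hair epithelium that acts downstream of ectodysplasin and activin, and its mutation is behind the hairless dog breeds with abnormal teeth.

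Library totals lay between 2845773 and 8403151 counts for the control teeth and between 3456634 and 8763113 for the IGF1 teeth, with embryo 1 lowest in both groups. Of 14504 genes tested with edgeR, 1666 passed an adjusted p of 0.05, which is 11.5% (6.72% higher and 4.76% lower with IGF1), and the median log2 fold change of all genes tested was -0.0038. Markers of both tissues of the tooth germ were detected. The summed level of 15 epithelial markers ran from 1841 to 2621 CPM (counts scaled to a common library total) in the control samples and from 2122 to 2910 in the IGF1 samples. That of 14 mesenchymal markers ran from 9559 to 11405 and from 8513 to 10972 CPM.

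None of the 7 genes passed the test in all 10 samples: 0 were called by edgeR, which called 11.5% of all genes, and 0 by DESeq2 or limma-voom. Edar alone was called in 2 alternatives of the edgeR fit, without embryo 1 (adjusted p = 0.0463) and among genes with at least 10 counts in every sample (0.0385). At an unadjusted p under 0.05 in the edgeR fit were 2 of the 7, Edar and Nfkbia, both lower with IGF1, a share close to the 26.5% of all genes tested. Edar, the receptor gene, had the largest fold change of the 7 (0.593 times the control level), with a mean in the IGF1 teeth of 5.97 CPM against 9.36 in the controls. Nfkbia, which encodes the NF-kB inhibitor IkB alpha and is itself an NF-kB target, was 0.870 times its control level and was lower in all 5 embryos. The other 5 genes had fold changes between 0.911 and 1.12.

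The start sites of these 7 genes are shown in part because the pathway ends in NF-kB, and Nfkbia, Edar and Foxi3 are the genes with the clearest bearing on the results below (the NF-kB feedback gene, the receptor and the transcription factor). Each sequence is the RefSeq window of 300 bases (GRCm38.p6) from 250 bases before to 50 bases after the start, written 5′ to 3′ on the gene's strand. Capitals mark matches to the frame of an NF-kB site, which is GGG and CC with any 5 bases between them, on either strand. Nfkbia lies at chr12:55492598-55492897 on the minus strand, Edar at chr10:58675647-58675946 on the minus strand and Foxi3 at chr6:70956356-70956655 on the plus strand.

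Nfkbia promoter: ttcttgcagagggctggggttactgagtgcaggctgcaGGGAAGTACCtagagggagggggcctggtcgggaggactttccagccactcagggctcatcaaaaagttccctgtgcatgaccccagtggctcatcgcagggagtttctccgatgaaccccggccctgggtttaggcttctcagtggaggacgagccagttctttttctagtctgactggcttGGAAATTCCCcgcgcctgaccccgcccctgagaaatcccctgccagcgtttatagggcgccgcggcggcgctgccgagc

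Edar promoter: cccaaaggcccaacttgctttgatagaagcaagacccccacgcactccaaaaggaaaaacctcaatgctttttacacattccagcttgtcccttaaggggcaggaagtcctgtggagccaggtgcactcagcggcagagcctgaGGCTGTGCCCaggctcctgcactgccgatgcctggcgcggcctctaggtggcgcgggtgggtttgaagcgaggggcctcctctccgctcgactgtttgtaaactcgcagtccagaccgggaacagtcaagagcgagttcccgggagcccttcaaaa

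Foxi3 promoter: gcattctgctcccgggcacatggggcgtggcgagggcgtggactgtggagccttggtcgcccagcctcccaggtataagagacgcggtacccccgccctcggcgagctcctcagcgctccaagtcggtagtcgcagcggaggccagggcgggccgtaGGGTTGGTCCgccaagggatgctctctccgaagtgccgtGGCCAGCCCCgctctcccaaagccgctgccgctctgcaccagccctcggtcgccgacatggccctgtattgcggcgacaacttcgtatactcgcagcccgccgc

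The Nfkbia window holds GGGAAGTACC with its first base at position -212 and GGAAATTCCC at position -29, counted from the start site. The Edar window holds a single match, GGCTGTGCCC at -106, and the Foxi3 window holds GGGTTGGTCC at -93 and GGCCAGCCCC at -54. Windows were found for all 7 genes, with 3 matches for Eda, 2 each for Eda2r and Traf6 (overlapping each other in both genes) and 0 for Edaradd. The frame is common, since 50.8% of 32851 promoters in the table hold it. TGTTTAC, a forkhead site, was found only in the Eda2r window, at -125, and in 3.65% of all promoters. These are matches of letters and show neither binding nor its absence.

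Per length of exon, the levels of the 7 genes in the control teeth fell in the order Nfkbia, Foxi3, Traf6, Edaradd, Eda, Edar and Eda2r. Nfkbia stood at 37.1 ± 2.22 CPM per kb (SD, n = 5) and Foxi3 at 12.5 ± 1.80. Traf6 stood at 6.74 ± 0.155 and Edaradd at 4.14 ± 0.590. Eda, Edar and Eda2r were lowest, at 2.87 ± 0.400, 2.57 ± 0.506 and 2.25 ± 0.885 CPM per kb. The control ranges of Eda (2.42 to 3.36), Edar (2.14 to 3.37) and Eda2r (1.54 to 3.73) overlap, so these neighbours did not differ beyond their spread. The range of Eda2r also reaches that of Edaradd.

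**Figure D1:**
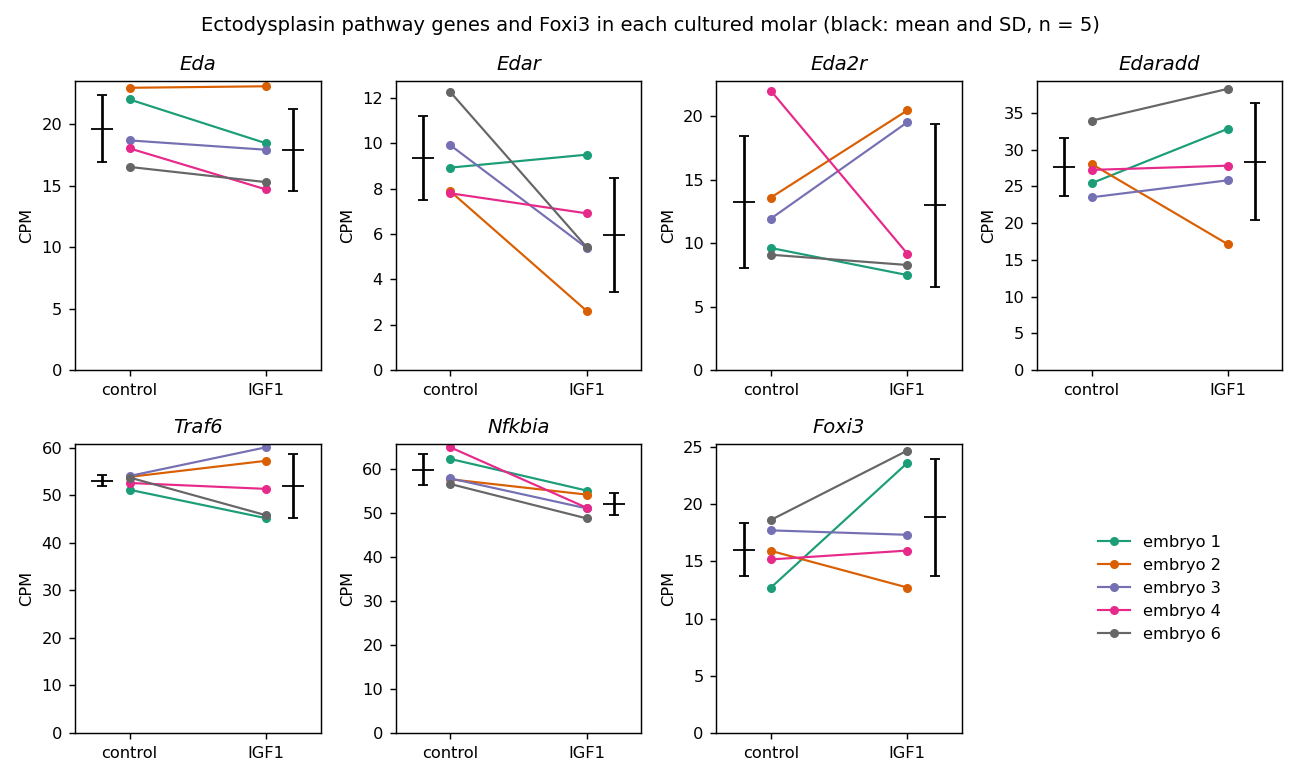
Level of each of the 7 genes in CPM in the control and the IGF1 tooth of each embryo; lines join teeth of the same embryo and black marks give the mean and SD of 5 samples. The Edar lines fall in 4 of 5 embryos, the Nfkbia lines fall in all 5 from a narrow range, and the Foxi3 and Edaradd lines go both ways.

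The ligand gene Eda (ENSMUSG00000059327, chrX:99975606-100400762, plus strand) was measured at 22.0, 22.9, 18.7, 18.0 and 16.5 CPM in the control teeth of embryos 1, 2, 3, 4 and 6. In the IGF1 teeth of the same embryos it was at 18.4, 23.1, 17.9, 14.7 and 15.3 CPM. The groups overlap, and the IGF1 tooth was the lower in 4 of 5 embryos, with embryo 2 level. The edgeR log2 fold change was -0.13 (SE 0.11, 95% interval -0.37 to 0.10; adjusted p = 0.479), which allows anything from 0.773 to 1.07 times the control level. The counts are per gene, so the splice forms of Eda, of which the longer binds EDAR and the shorter EDA2R, are not separated.

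The receptor gene Edar (ENSMUSG00000003227, chr10:58600789-58675654, minus strand) was at 8.93, 7.89, 9.92, 7.80 and 12.3 CPM in the control teeth of embryos 1, 2, 3, 4 and 6, and at 9.50, 2.62, 5.39, 6.92 and 5.42 CPM in their IGF1 teeth. Of the IGF1 teeth, 4 lie below every control tooth, and the IGF1 tooth of embryo 1 lies within the control range. Counts behind these values ran from 22 to 84. The edgeR log2 fold change was -0.75 (SE 0.24, 95% interval -1.28 to -0.22), or 0.593 times the control level (0.411 to 0.856), with an unadjusted p of 0.00954 and an adjusted p of 0.0692. The embryos differed among themselves, with log2 ratios of 0.09, -1.49, -0.84, -0.17 and -1.13. The adjusted p ranged from 0.0385 to 0.217 over 11 alternatives.

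The second receptor gene, Eda2r (ENSMUSG00000034457, chrX:97333840-97377216, minus strand), was at 9.62, 13.6, 11.9, 22.0 and 9.09 CPM in the control teeth and at 7.49, 20.4, 19.5, 9.17 and 8.28 CPM in the IGF1 teeth, in the order of embryos 1, 2, 3, 4 and 6. It varied most of the 7 genes, with a coefficient of variation of 39.4% in the controls and 49.5% with IGF1. The log2 ratio was 0.58 and 0.70 in embryos 2 and 3 and -1.23 in embryo 4. The mean difference was a log2 fold change of -0.04 with an interval from -0.61 to 0.53 (edgeR, adjusted p = 0.950), so changes of 0.656 to 1.45 times are within the error. Its sign turned to 0.30 without embryo 4.

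The adaptor gene Edaradd (ENSMUSG00000095105, chr13:12472632-12520438, minus strand) was at 25.4, 28.1, 23.5, 27.2 and 33.9 CPM in the control teeth and at 32.8, 17.1, 25.8, 27.8 and 38.3 CPM in the IGF1 teeth. It was higher with IGF1 in 4 embryos and lower in embryo 2, where the log2 ratio was -0.70. The edgeR log2 fold change of -0.0082 (SE 0.14, 95% interval -0.32 to 0.30; adjusted p = 0.980) became 0.17 without embryo 2.

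Traf6, the ubiquitin ligase below the adaptor (ENSMUSG00000027164, chr2:101678429-101701669, plus strand), was the steadiest of the 7 in the control teeth, at 51.2, 53.9, 54.1, 52.6 and 53.8 CPM. In the IGF1 teeth it spread from 45.2 to 60.1 CPM (45.2, 57.3, 60.1, 51.4 and 45.8). The control values lie inside the IGF1 range, and the log2 fold change was -0.03 (SE 0.08, 95% interval -0.22 to 0.15; edgeR adjusted p = 0.855). It was -0.086 without embryo 3 and turned to 0.014 without embryo 6.

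Nfkbia (ENSMUSG00000021025, chr12:55489410-55492647, minus strand) was at 62.2, 57.6, 57.8, 64.8 and 56.5 CPM in the control teeth and at 55.0, 54.1, 51.0, 51.1 and 48.7 CPM in the IGF1 teeth. The groups do not overlap, which holds for 7.25% of all genes tested, and a level lower in all 5 embryos was seen for 11.2% of them. The difference was small and even, with log2 ratios of -0.18, -0.09, -0.18, -0.34 and -0.21. The edgeR log2 fold change was -0.20 (SE 0.07, 95% interval -0.36 to -0.04; unadjusted p = 0.0196, adjusted p = 0.105), and the adjusted p ranged from 0.0976 to 0.298 over 11 alternatives. With DESeq2 the log2 fold change was also -0.20, with a larger SE of 0.11 (adjusted p = 0.298).

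Foxi3 (ENSMUSG00000055874, chr6:70956531-70961066, plus strand) was at 12.7, 15.9, 17.7, 15.2 and 18.6 CPM in the control teeth and at 23.6, 12.7, 17.3, 16.0 and 24.7 CPM in the IGF1 teeth. The IGF1 teeth of embryos 1 and 6 lie above every control tooth and the other 3 lie within the control range. The log2 ratios were 0.88 and 0.40 in embryos 1 and 6, and -0.32, -0.03 and 0.07 in embryos 2, 3 and 4. The edgeR log2 fold change was 0.17 (SE 0.16, 95% interval -0.18 to 0.52; adjusted p = 0.548), that is 1.12 times the control level with an interval from 0.882 to 1.43. It was 0.04 without embryo 1 and 0.29 without embryo 2 on the log2 scale. Foxi1 and Foxi2, its closest relatives, were not analysed here.

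**Figure D2:**
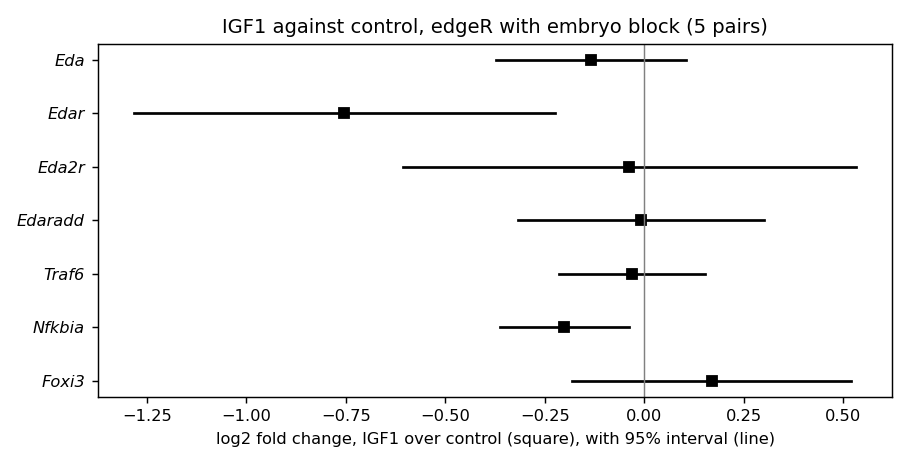
Fitted log2 fold change of IGF1 over control for each of the 7 genes (squares) with its 95% interval (lines), from edgeR with embryo as a block over 5 pairs. The intervals of Edar (-1.28 to -0.22) and Nfkbia (-0.36 to -0.04) lie below 0 and those of the other 5 genes include it, and no gene passed the adjusted threshold.

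Of 24 further receptor, kinase, NF-kB and feedback genes of the cascade, all tested, 1 rose and 2 fell, with a median log2 fold change of -0.05. This share is close to the 11.5% of all genes that were called, against which the counts of the lists below are also to be read. Traf3, an adaptor that restrains the non-canonical NF-kB branch, rose from 59.6 ± 4.38 to 77.7 ± 5.30 CPM (log2 fold change 0.38, SE 0.09, edgeR adjusted p = 0.0171). Its groups do not overlap and it was higher in all 5 embryos, but its adjusted p was 0.0595 without embryo 2 and 0.0749 without embryo 6. Tnfrsf19 (also called Troy), a receptor of the same family as EDAR, fell from 121 ± 15.6 to 97.5 ± 14.5 CPM (log2 fold change -0.32, SE 0.08, edgeR adjusted p = 0.0209), lower in all 5 embryos. Its edgeR adjusted p was 0.0704, 0.0517 and 0.0653 without embryo 1, 3 and 4, and 0.145 without the embryo block. Tnip1, which binds the NF-kB inhibitor A20, fell by 0.33 on the log2 scale (SE 0.09, edgeR adjusted p = 0.0413), and the call was lost in each of the 5 fits that left out an embryo (adjusted p from 0.0513 to 0.124).

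The remaining 21 genes of that list did not pass. Among the kinase genes, Chuk had a log2 fold change of 0.22 and was higher in all 5 embryos (edgeR adjusted p = 0.0979), Ikbkb was at -0.15 and Ikbkg at -0.08. The NF-kB subunit genes Rela, Relb, Nfkb1 and Nfkb2 were at -0.09, -0.02, -0.05 and -0.17, and Rel was at 0.19. Tnfaip3, which encodes A20 and is an NF-kB target like Nfkbia, was at 0.04.

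Of the genes known from skin, hair or tooth as targets of ectodysplasin, Shh showed the largest change that passed the test. Of 13 such genes 11 were tested, and 0 rose and 3 fell (9 of the 11 log2 fold changes were below 0), with a median log2 fold change of -0.35; Ltb and Madcam1, with total counts of 61 and 69, were too low to test. Shh, the signal of the enamel knot, was at 44.3, 27.8, 28.0, 25.8 and 50.9 CPM in the control teeth of embryos 1, 2, 3, 4 and 6, and at 12.7, 7.49, 13.5, 10.4 and 30.0 CPM in their IGF1 teeth. It was lower in every embryo, by a log2 fold change of -1.31 (SE 0.16, edgeR adjusted p = 0.000645), and was called in all 11 alternatives. The IGF1 tooth of embryo 6 lies inside the control range.

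The other called genes of the list changed less. Ccn2, a matricellular protein also called connective tissue growth factor, fell from 54.7 to 40.5 CPM (log2 fold change -0.44, SE 0.11, edgeR adjusted p = 0.0264). Fst, the activin antagonist follistatin, fell from 71.0 to 52.4 CPM (log2 fold change -0.44, SE 0.12, edgeR adjusted p = 0.0365), in 4 of 5 embryos. Both calls depend on single embryos: that of Ccn2 was lost without embryo 2, 4 or 6 (adjusted p from 0.0528 to 0.112), and that of Fst without embryo 1, 2, 4 or 6 (0.0800 to 0.124). Dkk4, a secreted Wnt inhibitor, was at 5, 12, 12, 28 and 11 counts in the control teeth and at 0, 1, 0, 1 and 13 in the IGF1 teeth, so 4 of 5 embryos were lower (log2 fold change -2.48, SE 0.74, edgeR adjusted p = 0.0535). Fgf20, a knot signal, was lower in all 5 embryos at low counts (log2 fold change -1.14, adjusted p = 0.120 in the edgeR fit), while Wnt10a and Ccnd1 were at 0.45 and 0.29. Cxcl10 and Cx3cl1, chemokine genes that respond to NF-kB in skin, were at -0.15 and -0.02.

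**Figure D3:**
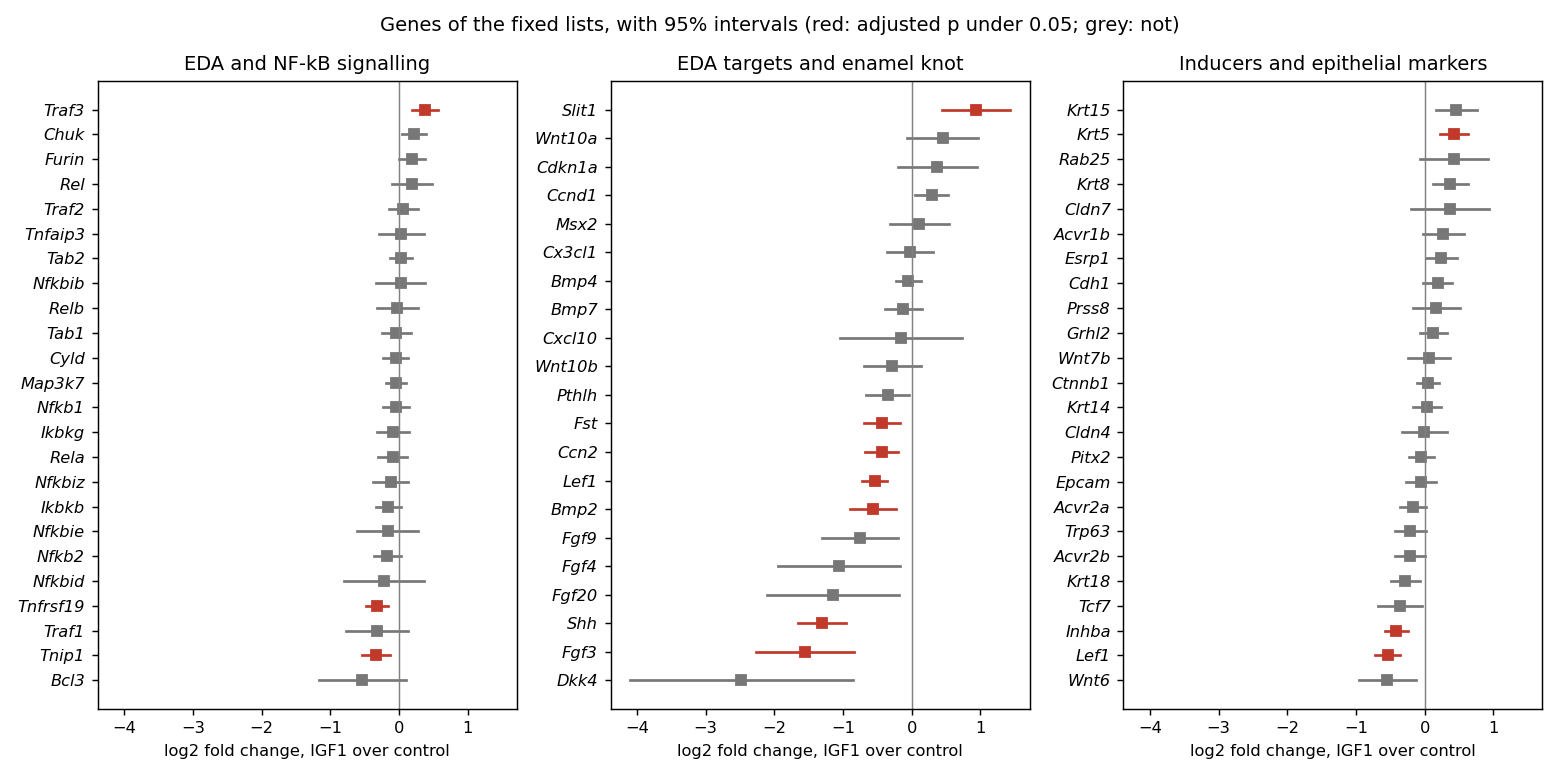
Fitted log2 fold change of IGF1 over control with its 95% interval for the genes of the signalling, ectodysplasin target, enamel knot, inducer and epithelial marker lists; red marks an adjusted p under 0.05 in edgeR. Most signalling genes sit close to 0. Dkk4 (-2.48, with the widest interval), Fgf3, Shh, Fgf20 and Fgf4 lie furthest below it, of which Fgf3 and Shh passed the test, and Slit1 lies furthest above.

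The enamel knot list shares Shh, Fgf20, Wnt10a, Wnt10b and Dkk4 with the target list. Of its 15 tested genes 1 rose and 4 fell, with a median of -0.54, which was -0.20 among genes with at least 10 counts in every sample. The median ratio was -0.52, -0.73, -0.13, -0.44 and 0.07 in embryos 1, 2, 3, 4 and 6, so only that of embryo 6 was above 0. The 4 genes that fell were lower with IGF1 in embryo 6 too, and the other genes of the list went both ways there. Fgf3 was at 13.4, 10.2, 18.4, 16.5 and 27.1 CPM in the control teeth and at 5.47, 2.14, 2.41, 4.94 and 23.3 CPM in the IGF1 teeth, lower in every embryo and least in embryo 6 (log2 fold change -1.55, SE 0.32, edgeR adjusted p = 0.0116, and 0.237 without the embryo block). Lef1, a transcription factor of the Wnt pathway that lies upstream of Eda expression, fell from 120 to 83.0 CPM with no overlap between the groups (log2 fold change -0.54, SE 0.08, edgeR adjusted p = 0.00219). Bmp2 fell from 12.7 to 8.76 CPM (-0.56, edgeR adjusted p = 0.0367), a call kept in 1 of the 5 fits without an embryo. The Bmp2 call was also lost with DESeq2 (adjusted p = 0.116) and in edgeR without the embryo block (0.294). Slit1 rose from 5.31 to 10.1 CPM (0.94, edgeR adjusted p = 0.0228), a call kept in 2 of those 5 fits. Of the 15 log2 fold changes 11 were below 0 and 4 above it. Among the genes that did not pass, Fgf4 and Fgf9 were at -1.06 and -0.75. Cdkn1a and Msx2, which did not pass either, were at 0.37 and 0.11, and Bmp4 and Bmp7 at -0.05 and -0.12.

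Among genes that act upstream of Eda, Edar or Foxi3, the activin subunit gene and Lef1 were lower. Of 9 activin and Wnt genes 0 rose and 2 fell, Lef1 and Inhba, and these 2 calls were kept in every alternative. Inhba, which encodes the activin subunit that induces Edar and Foxi3 in tooth and hair, was at 157 to 185 CPM in the control teeth and at 102 to 145 CPM in the IGF1 teeth, with no overlap. Its log2 fold change was -0.41 (SE 0.08, edgeR adjusted p = 0.00601). Wnt6 was lower in all 5 embryos without passing (-0.54, edgeR adjusted p = 0.0903), and the activin receptor genes Acvr1b, Acvr2a and Acvr2b were at 0.27, -0.17 and -0.22.

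Among the markers of the main tissues, 4 were called, a share close to the 11.5% of all genes. Of the 15 epithelial markers 1 rose, Krt5, a basal keratin (log2 fold change 0.43, SE 0.09, edgeR adjusted p = 0.0126, and 0.0646 without embryo 6). The median of the 15 was 0.17, and 0.10 without embryo 3, and 5 of the 15 lay below 0. Of the 14 mesenchymal markers 3 fell, Pdgfra, Vim and Pdgfrb, with a median of -0.13. Of the 14, 2 lay above 0, Col1a1 at 0.14 and Col1a2 at 0.10. The Pdgfrb call (edgeR adjusted p = 0.0334) was lost without embryo 1, 4 or 6, at adjusted p of 0.0532, 0.0740 and 0.0907. Without the embryo block the calls of Krt5, Vim and Pdgfrb were lost (edgeR adjusted p = 0.107, 0.0706 and 0.194). In embryos 1, 2, 3, 4 and 6 the median log2 ratio of the epithelial markers was -0.00056, 0.13, 0.33, -0.07 and 0.27. That of the mesenchymal markers was -0.0072, -0.15, -0.31, -0.13 and -0.30, below 0 in all 5 embryos. The part of tissue composition in the values of the 7 genes was not tested.

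**Figure D4:**
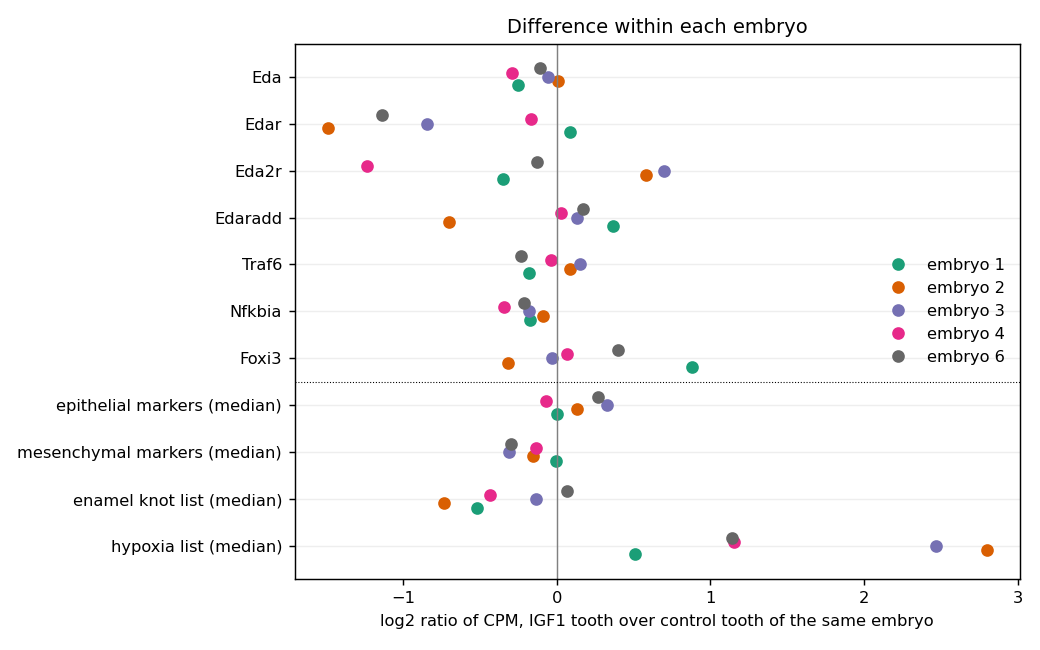
Log2 ratio of the IGF1 tooth over the control tooth of the same embryo (CPM with a prior count of 2) for each of the 7 genes, and below the dotted line the median ratio of 4 gene lists. Nfkbia lies below 0 in all 5 embryos and the hypoxia list above 0 in all 5, while Eda2r, Edar and Foxi3 spread widely between embryos.

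The list of hypoxia-responsive genes moved most and differed between embryos. All 9 of its tested genes rose, with a median log2 fold change of 1.69. The call of Adm (edgeR adjusted p = 0.0429) was lost in each of the 4 fits without an embryo in which it was tested (adjusted p from 0.0618 to 0.184), and Adm was lower with IGF1 in embryo 1, at -0.22. The median ratio of the list was 0.51, 2.80, 2.47, 1.15 and 1.14 in embryos 1, 2, 3, 4 and 6. In the same order the ratio of Edar was 0.09, -1.49, -0.84, -0.17 and -1.13, and that of Foxi3 was 0.88, -0.32, -0.03, 0.07 and 0.40. That of Eda2r was -0.35, 0.58, 0.70, -1.23 and -0.13, and that of Traf6 was -0.18, 0.09, 0.15, -0.03 and -0.23. Eda was at -0.25, 0.0076, -0.06, -0.29 and -0.11, and Nfkbia at -0.18, -0.09, -0.18, -0.34 and -0.21. Edaradd was at 0.37, -0.70, 0.13, 0.03 and 0.17. The part of the hypoxia response in the values of the 7 genes was not tested.

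For each of the 7 genes, the 3 genes whose log2 CPM followed it most closely over the 10 samples were listed, as a description. The 10 points share embryo, depth and treatment. Edar was followed by Cuedc2 (Pearson r = 0.955, Spearman rho = 0.927), Scyl3 (0.928 and 0.794) and Fancc (0.924 and 0.842). Nfkbia was followed by Ppp2r5a (0.951 and 0.867), Herc3 (0.948 and 0.952) and Ip6k1 (0.947 and 0.988). Foxi3 was followed by Olfr477 (0.938 and 0.927), Cdca5 (0.896 and 0.818) and Lmo1 (0.894 and 0.867).

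For Eda these were Gm45551, Zfp36l2 and Smim14 (r from 0.916 to 0.925), for Edaradd Mrps26, Wdr77 and Usp42 (0.920 to 0.927), for Eda2r Ets2, Susd6 and Napb (0.892 to 0.926) and for Traf6 Arl13b, Vezt and Nbdy (0.927 to 0.956). No gene of the 7 was among the closest for another. The number of genes with r above 0.8 ran from 50 for Foxi3 to 248 for Nfkbia. Ranked by Spearman's rho, 1 of the 3 genes was kept for each member except Edar, for which 0 were kept.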

How the data were processed

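RNA of 10 cultured E14 molars was measured by RNA-seq. The authors deposited estimated counts per gene from salmon. The submitters' processing notes name FastQC 0.11.8, Trimmomatic 0.39, Salmon 0.99.0, DESeq2 and build GRCm38, with no role or order. The transcript set, strand setting and filter are not given in the sources used here. All values are whole numbers (0 exceptions), and the lowest gene total is 10, so rounding changed none. Reads shared by paralogs or overlapping genes can be split by the estimation. GENCODE M21 (GRCm38) matched 18287 of 18381 identifiers, and exon lengths come from it. Promoters come from RefSeq (GRCm38.p6).

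Counts were tested with edgeR 4.0.16 (R 4.3.3, quasi-likelihood, TMM, expression filter, Benjamini-Hochberg over 14504 genes, threshold 0.05) with embryo as a block, since both teeth of a pair come from the same embryo. Deviations from group means correlated within pairs at 0.319, 0.208, -0.0389, 0.170 and 0.313, against a median of -0.0463 between embryos. In embryos 2 and 3 the control tooth correlated more highly with an IGF1 tooth of another embryo than with its own partner. Duplicate libraries were looked for and none was found: chi-square per degree of freedom between samples of a group was 4.47 to 19.4. Alternatives were DESeq2 size factors, DESeq2 1.42.0, limma-voom (limma 3.58.1), other filters, no block and leaving out each embryo. The procedure was tested on simulated data. Figures were drawn with Python 3.11.15.

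The genes and lists were chosen with earlier results of these data known. Named are the 7 genes, list genes that passed, uncalled list genes needed to account for a list, and the 3 genes most like each of the 7 by Pearson's r of log2 CPM (prior count 2). A list of p53 target genes was added after values were seen.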

Additional observations from a re-analysis of the deposited data

Results flagged for a closer look

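For the 7 genes and every tested gene of the lists except the p53 target list, 230 groups of 5 samples were examined. Genes found only on the p53 target list were not examined in this way. In 21 of the 230 groups a single sample lay far from the others, where chance gives about 11.5. Far means a gap to the nearest sample of more than 0.71 of the group's whole range. None of the 21 concerns Eda, Edar, Edaradd, Eda2r, Traf6, Nfkbia or Foxi3.

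The IGF1 tooth of embryo 6 stood high for 4 enamel knot genes. It held Shh at 30.0 CPM against 7.49 to 13.5 in the others (gap 0.731), Fgf3 at 23.3 against 2.14 to 5.47 (gap 0.842), Fgf4 at 9.71 against 0.594 to 1.44 (gap 0.907) and Dkk4 at 1.86 against 0 to 0.141 (gap 0.924). The control tooth of embryo 6 was also the highest of the controls for Shh, at 50.9 CPM, and Fgf3, at 27.1 CPM, but not for Dkk4. It held Lef1 at 152 CPM against 107 to 119 (gap 0.731) and the endothelial gene Pecam1 at 65.3 against 75.7 to 79.6 (gap 0.728).

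The control tooth of embryo 1 stood high for the hypoxia genes Adm, at 2.40 CPM against 0.827 to 1.02 (gap 0.876), and Egln3, at 24.0 against 8.98 to 11.4 (gap 0.842). It also held Relb at 18.9 CPM against 11.7 to 12.6 (gap 0.871), Acvr1b at 89.7 against 47.6 to 58.2 (gap 0.750) and Tie1 at 53.2 against 37.9 to 42.3 (gap 0.713). The control tooth of embryo 4 stood high for Dkk4, at 3.97 CPM against 1.42 to 1.75 (gap 0.869), and Cxcl10, at 5.11 against 1.36 to 1.61 (gap 0.935).

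The control tooth of embryo 2 stood high for Cyld and Ptprc (gaps 0.797 and 0.902) and low for Grhl2 and Lhx6 (gaps 0.753 and 0.805), and its IGF1 tooth stood high for Cdkn1a (gap 0.804). The IGF1 tooth of embryo 3 stood high for Ccn2, at 50.4 CPM against 37.1 to 38.7 (gap 0.883), and for Trp63 (gap 0.722), and that of embryo 4 for Emcn (gap 0.726).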

How the results depend on the processing

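Eda, Edar, Nfkbia and Foxi3 kept their direction under all 11 alternatives. Their log2 fold changes ranged from -0.17 to -0.09 for Eda, from -0.93 to -0.57 for Edar, from -0.23 to -0.16 for Nfkbia and from 0.04 to 0.29 for Foxi3. Edar passed the threshold in 2 alternatives, at -0.76 with at least 10 counts in every sample and at -0.93 without embryo 1, so the number of the 7 genes called was 1 with that filter and 0 to 1 when an embryo was left out. Edaradd changed sign to 0.026 without the replicate block, and leaving out an embryo gave values from -0.082 to 0.17. Eda2r was at 0.030 with limma-voom and from -0.27 to 0.30 when an embryo was left out, and Traf6 from -0.086 to 0.014. The causes were not tested.

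Without the replicate block 887 genes were called, and leaving out an embryo gave 986 to 1602. The called genes without the block were 1 of the signalling list (Traf3), 1 of the target list (Shh) and 3 of the enamel knot list (Shh, Lef1 and Slit1). Leaving out an embryo gave 1 in every case, 1 to 3 and 3 to 5. The block changed no call among the 7 genes. The median of the enamel knot list was -0.20 among genes with at least 10 counts in every sample. Each scaling left the median of all genes within 0.1 of 0 on the log2 scale. With 22 to 84 counts per sample, Edar is among the least precise of the 7 genes.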

Other observations

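Markers of other cells in the tooth germ were lower or did not pass. Of 6 endothelial markers 1 fell, Cdh5 (log2 fold change -0.38, edgeR adjusted p = 0.0188). The Cdh5 call was lost without embryo 2 or 4 (edgeR adjusted p = 0.0537 and 0.0545) and without the block (0.0797). The summed level of the 6 ran from 363 to 411 CPM in the control teeth and from 284 to 377 in the IGF1 teeth. Of 5 tested macrophage markers 1 fell, Csf1r, the receptor for colony stimulating factor (-0.44, edgeR adjusted p = 0.0234), with sums of 45.7 to 67.5 and 34.3 to 61.0 CPM. The Csf1r call was lost with DESeq2 (adjusted p = 0.0640), and in edgeR without the block (0.303) and without embryo 3, 4 or 6 (at most 0.102). Of 4 tested erythroid markers 3 fell, the globin genes Hba-a1, Hbb-bt and Hbb-bs, with a median of -0.49 and sums of 447 to 878 and 324 to 597 CPM. These 3 calls were lost without the block (edgeR adjusted p = 0.0574, 0.206 and 0.188). Schwann cell markers did not pass (0 of 2 tested, sums of 72.5 to 96.5 and 67.4 to 80.5 CPM), and Foxd3 was at 0 in 5 samples.

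Eda2r is known as a target of p53, so 16 p53 target genes were listed after its values had been seen, as a description only. Of these 2 rose, Ccng1 and Rps27l, and 1 fell, Fas, with a median log2 fold change of 0.29, where 11.5% of all genes were called. In embryos 1, 2, 3, 4 and 6 their median ratio was -0.06, 0.54, 0.50, -0.29 and 0.13, beside -0.35, 0.58, 0.70, -1.23 and -0.13 for Eda2r. Members of the list differed from each other. Cdkn1a, a cell cycle inhibitor picked after its values were seen, was at -0.24, 1.59, 0.83, -0.60 and 0.10. Fas was below 0 in all 5 embryos and Rps27l above 0 in all 5.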
